A study of Mus musculus with 6 samples.

Results

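Apod, Apoe and Clu encode carriers of lipid that cells secrete. They were chosen by name from the 20822 genes of the count table, as 3 genes whose levels differed between the cell type labels or the genotypes of these cells in earlier results. The method was Drop-seq, a single-cell RNA-seq in which a bead barcode marks each cell and a unique molecular identifier (UMI) marks each captured RNA molecule. The cells came from retinas of mouse pups with oxygen-induced retinopathy (OIR), taken at P14 after 75% oxygen from P7 to P12 with CD1 foster mothers. The eNOS+/+ pups were C57BL/6J wild type, and the eNOS-/- pups were homozygous in the whole animal for a Nos3 knockout allele backcrossed to C57BL/6J, with no Cre or transgene. Both groups had OIR, so no value here compares OIR with room air. Each genotype had 3 replicates of 3 to 5 pooled retinas, and cells were enriched with beads against CD31, a surface protein of endothelial cells (ECs).

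Apod is a small lipocalin that binds fatty acids and other lipids and is made by glia and by cells of vessel walls in many tissues. Apoe is the main protein of the lipoproteins that glia release in neural tissue, where it passes lipid to cells through receptors of the LDL receptor family, and microglia and macrophages also make it. Clu, also called apolipoprotein J, is a secreted chaperone that binds misfolded proteins and lipids and is made by astrocytes and Muller glia. In the GENCODE annotation of GRCm38, Apod lies on the minus strand of chromosome 16 (31296192 to 31314808), Apoe on the minus strand of chromosome 7 (19696109 to 19699188) and Clu on the plus strand of chromosome 14 (65968483 to 65981547). All are protein coding genes. The table counts whole genes, so the values do not separate exons or isoforms.

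The table held 8944 cells and 10361314 UMIs, from 617246 to 3350799 per replicate, and 5925 cells were labelled as ECs. Nos3 UMIs did not check the genotype labels, since the level in all ECs was 19.4 to 36.6 UMIs per 1000000 UMIs of a sum (CPM) in eNOS+/+ and 16.1 to 32.8 CPM in eNOS-/- replicates. All 613 cells of eNOS+/+ replicate 2 carry the name of another replicate in a further column of the deposited annotation, and the replicate column was used here. Of the 15 pairs of libraries, 3 shared a cell barcode, 1 barcode each. Between 27.9% and 39.0% of the cells of a library had a barcode that differed only in its last base from another of that library.

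The cell type labels were checked against marker lists before the levels were read. At least 2 UMIs of the EC list were present in 92.5% of Tip ECs, 69.3% of Structural ECs and 80.6% of Proliferative ECs. At least 2 UMIs of the microglia and macrophage list were present in 90.3% of Immune cells, and at least 2 of the Muller glia and astrocyte list in 94.0% of Neuroglia. The class labelled Optc+, after the eye proteoglycan gene Optc, held Muller glia and astrocyte markers in 79.0% of its cells as well. Of the ECs, 652 held at least 2 UMIs of the Muller glia and astrocyte list. The microglia and macrophage list had at least 2 UMIs in 94 ECs. In eNOS-/- replicate 3, the 147 Structural ECs with neither held 1045 UMIs of the mural cell list, in 55 cells. In the other replicates such cells held 14 to 178. They count as ECs here except in alternatives that leave out ECs with other markers. There were also 4 smaller sets, 1 of them within the 94 ECs, that held markers of another class than their label and touch the genes described here.

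The largest of these smaller sets was 14 of the 216 Immune cells, from eNOS-/- replicates 1 and 2. They held 593 UMIs of the pigment epithelium list (Rpe65, Ttr, Rgr, Lrat and Pmel) and 2 UMIs of the microglia and macrophage list. The other 202 Immune cells held 4800 UMIs of the microglia and macrophage list. The Structural ECs of eNOS+/+ replicate 2 included 8 cells with 237 UMIs of that list, and 5 of these cells also held 96 UMIs of the EC list. Among the 157 Optc+ cells, 8 from eNOS-/- replicates 1 and 2 held 274 UMIs of the pigment epithelium list and 0 of Optc. The 5 cells labelled Optc+ in eNOS-/- replicate 3 held 112 UMIs of the mural cell list and 0 of Optc. Those 5 cells were under the 10 required for a summary, and the other sets are given beside the values they touch.

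The genes differed in the cell type where each was highest, and Apoe and Clu shared Neuroglia and Optc+ cells. Apod was mainly an EC transcript and highest in Tip ECs, Apoe was highest in Immune cells, and Clu was highest in Neuroglia. ECs held 97.2% of the 4999 Apod UMIs, Tip ECs alone 53.4%. Immune cells, 216 of the 8944 cells, held 46.6% of the Apoe UMIs, Optc+ cells 23.1%, ECs 18.4% and Neuroglia 10.6%. Neuroglia held 41.6% of the Clu UMIs and Optc+ cells 37.9%. The cell types were assigned from the same UMIs, so these levels are a description, without a test. The genes' levels are not set against each other, because only the order of the cell types within a gene is of interest.

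**Figure D1:**
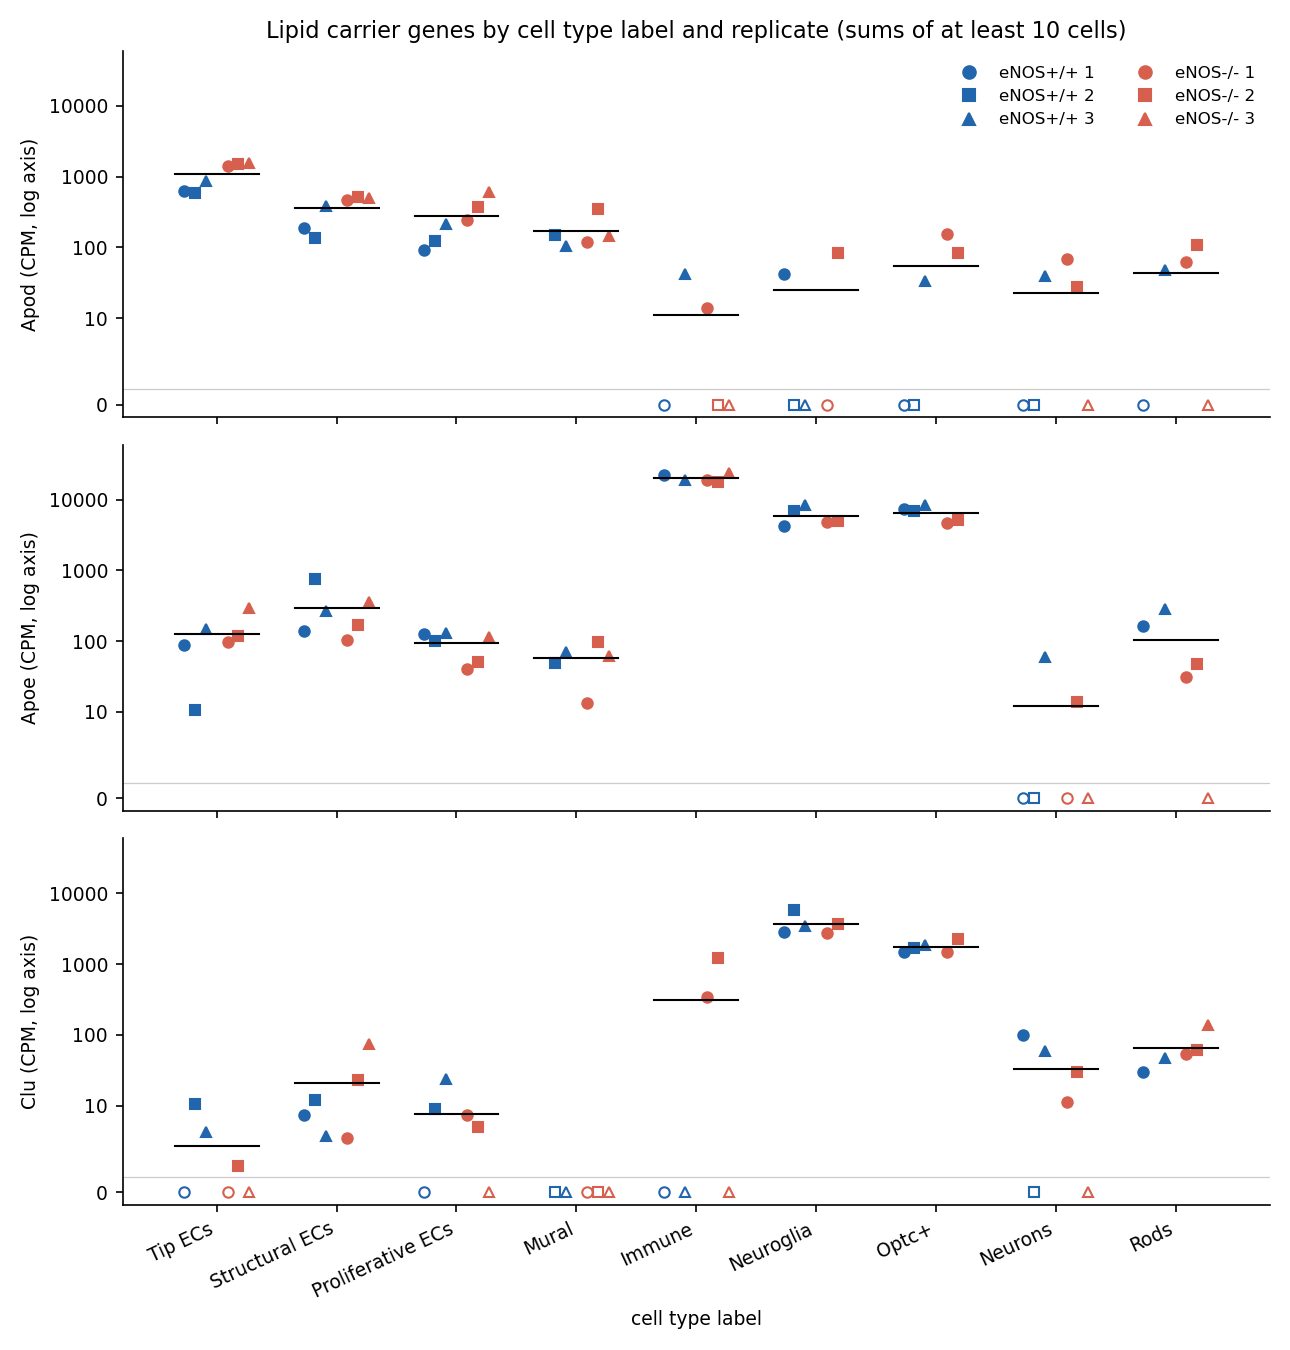
CPM (log axis) of Apod, Apoe and Clu in each cell type label. Each symbol is the UMI sum of 1 replicate with at least 10 cells, open symbols at the foot mark sums with 0 UMIs, and black lines are means over replicates. Apod lies highest in Tip ECs, Apoe in Immune cells and Clu in Neuroglia, and Clu has no UMI in Mural cells.

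Apod was the carrier of the endothelium, and within it of the Tip ECs, the label of the migrating cells at the front of new vessels. In Tip ECs its level was 618, 588 and 865 CPM in eNOS+/+ replicates 1 to 3 and 1428, 1504 and 1557 CPM in eNOS-/- replicates 1 to 3. In Structural ECs it was 185, 134 and 388 CPM in eNOS+/+ and 473, 512 and 497 CPM in eNOS-/- replicates. In Proliferative ECs it was 91.8, 121 and 213 CPM in eNOS+/+ and 242, 368 and 601 CPM in eNOS-/- replicates. In each subtype every eNOS-/- replicate lay above every eNOS+/+ replicate, and eNOS+/+ replicate 3 was the highest of its genotype in each.

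Means over replicates were 1093 ± 454 CPM for Tip, 365 ± 166 CPM for Structural and 273 ± 188 CPM for Proliferative ECs (SD, n = 6). Tip ECs exceeded Structural ECs of the same replicate by 2.23- to 4.40-fold and Proliferative ECs by 2.59- to 6.73-fold, in 6 of 6 replicates. Structural over Proliferative ECs was 2.01, 1.10 and 1.82 in eNOS+/+ and 1.95, 1.39 and 0.827 in eNOS-/- replicates. The order of these subtypes thus turned in eNOS-/- replicate 3, and their difference was not tested. Mural cells, the pericytes and smooth muscle of the vessel wall, were next with 104 to 343 CPM in 5 replicates, which overlapped both of these subtypes.

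In cells outside the vessel wall Apod was scarce. Its pooled level was 67.5 CPM in Optc+ cells, 62.5 CPM in Rods, 44.0 CPM in Neuroglia, 32.0 CPM in Neurons and 11.9 CPM in Immune cells, from 2 to 41 UMIs each. The 50 Cones held 0 UMIs, which allows up to 55.5 CPM at 3 counts. Free RNA in droplets can give such values. Rods, which should lack the gene, held 0.0465 Apod UMIs per UMI of the EC list, Structural ECs 0.0504, Proliferative ECs 0.0362 and Tip ECs 0.127. On this ratio Rods lay between Structural and Proliferative ECs, and whether their Apod is free RNA was not tested. Mural cells held 0.0939 Apod UMIs per EC marker UMI, and 3 of the 214 Mural cells held 45.6% of their 57 Apod UMIs.

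Detection in single cells was also highest in Tip ECs. A UMI of Apod was found in 55.6% of 1428 Tip ECs (95% exact binomial interval 53.0% to 58.2%), 18.3% of Structural ECs, 20.1% of Proliferative ECs and 1.92% of Rods. Median depths were 1007, 491, 963.5 and 361 UMIs per cell. With each cell drawn down to 500 UMIs, and shallower cells left out (337, 1688, 355 and 1087 cells), the shares were 41.5%, 16.4%, 9.54% and 2.85%. Structural and Proliferative ECs thus changed places between full and equal depth. Intervals and limits of this kind cover counting error only. Within Tip ECs the UMIs were spread over many cells, with 280 cells at 1 UMI, 184 cells at 5 or more, a highest value of 25, and 6.86% of the UMIs in the 10 highest cells.

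The equal-depth shares are given by replicate, from 1 random draw and without a test of the genotypes or of the subtypes against each other. In Tip ECs the shares were 22.7%, 24.3% and 33.6% in eNOS+/+ and 44.3%, 55.2% and 45.6% in eNOS-/- replicates, without overlap. In Structural ECs they were 2.96%, 7.14% and 17.9% against 15.9%, 22.3% and 17.5%, with eNOS+/+ replicate 3 inside the eNOS-/- range. In Proliferative ECs they were 5.56%, 5.41% and 11.8% against 7.20%, 13.5% and 20.8%, with the same replicate inside the range.

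**Figure D2:**
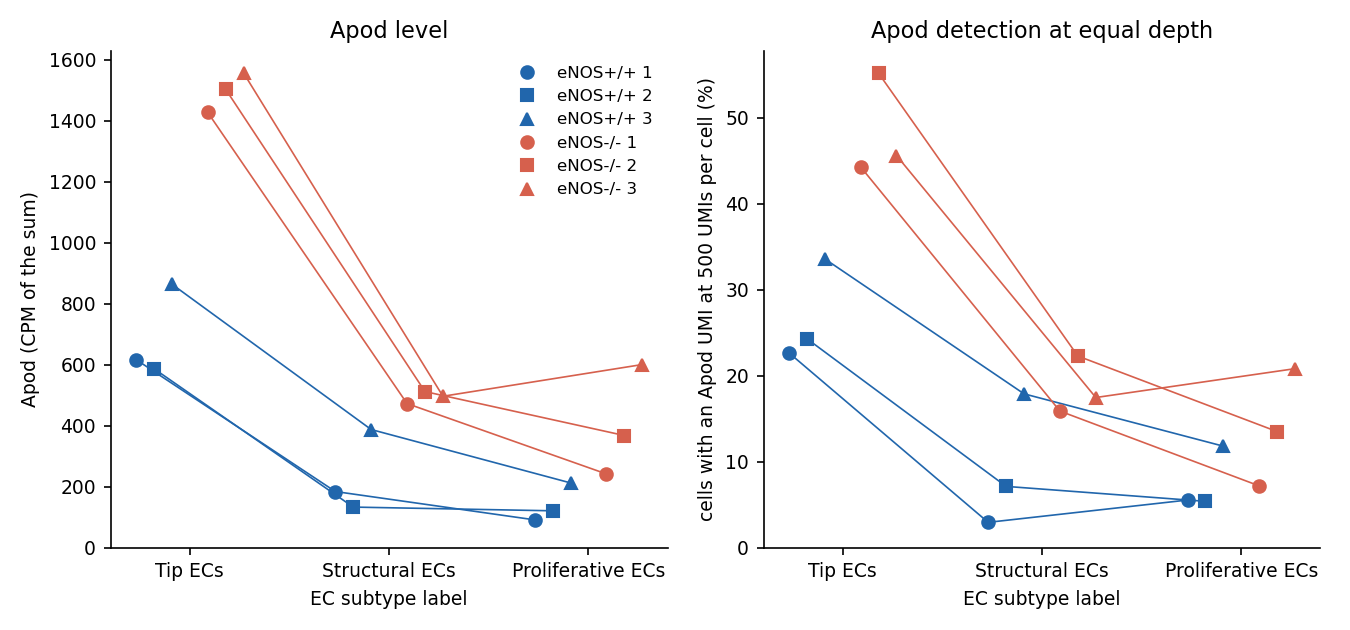
Apod in EC subtypes, by replicate (lines join the subtypes of 1 replicate). Left, CPM of the UMI sum, where the eNOS-/- replicates lie above the eNOS+/+ replicates in each subtype. Right, percent of cells with an Apod UMI at an equal depth of 500 UMIs per cell, where the genotypes are apart in Tip ECs and overlap in Structural and Proliferative ECs.

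The genotype comparison asks which genes of each EC subtype depend on eNOS in OIR. Apod differed in 1 direction in each subtype, eNOS-/- over eNOS+/+. The log2 difference was 1.10 (SE 0.25) for Tip, 1.00 (SE 0.31) for Structural and 1.37 (SE 0.32) for Proliferative ECs, and 1.06 (SE 0.26) with all ECs summed. None passed edgeR's quasi-likelihood test after Benjamini-Hochberg adjustment over all genes (adjusted p = 0.142, 0.743, 0.223 and 0.483). The test called 0.0181% of 5510 genes in Tip ECs and, in the same order, 0.0264%, 0.0434% and 0.0211% of genes for the other sums. Sets of replicates that do not overlap with eNOS-/- higher, as for Apod, were found for 4.94%, 5.74%, 5.36% and 5.39% of the tested genes. The Apod difference in Tip ECs was in view when the gene was chosen, so its direction is a description.

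Which call Apod received depended on the test. In Tip ECs DESeq2 gave log2 1.11 (adjusted p = 0.00424), against adjusted p of 0.0386 to 0.168 over the edgeR alternatives that kept all replicates. DESeq2 called 2 of 16815 genes there. Without the filter on low counts edgeR also called Apod in Structural ECs (adjusted p = 0.0464), Proliferative ECs (adjusted p = 0.00356) and all ECs (adjusted p = 0.00195). That setting called 29 of 18692, 9 of 16641 and 27 of 19593 genes in these sums, and 6 of 16815 in Tip ECs. In Proliferative ECs edgeR called Apod with the replicate number as a block (adjusted p = 0.000157), where 7 of 5185 genes were called. It also called Apod there with 1 cell per barcode family (adjusted p = 0.0360), where 7 of 3969 genes were called. Both settings kept all replicates. The block has no basis in the labels, and same-numbered replicates had correlations of 0.13, -0.07 and 0.12 in their deviations. In the same subtype edgeR called Apod without eNOS-/- replicate 1 (adjusted p = 0.0450) and without eNOS-/- replicate 3 (adjusted p = 0.0183), with log2 values of 1.68 and 1.08. These fits called 3 of 4852 and 74 of 5237 genes. In Structural ECs the difference fell to log2 0.74 with ECs that hold markers of glia, microglia, mural cells or rods left out, and was 1.62 without eNOS+/+ replicate 3.

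A difference of the Apod genotype effect between subtypes was not called. Its value in Tip ECs exceeded that in Structural ECs by log2 0.07 and fell below that in Proliferative ECs by log2 0.17, with an adjusted p of 1.00 for the interaction of genotype and subtype (edgeR). Leaving out 1 replicate moved the Tip minus Structural value between -0.29 and 0.22, so neither a shared nor a subtype-specific difference is shown. No gene of 7502 was called for this interaction (0%), and 246 had an unadjusted p under 0.05. DESeq2 was not run on it. Tip ECs were 21.6%, 27.4% and 30.9% of ECs in eNOS+/+ and 21.5%, 22.2% and 23.3% in eNOS-/- replicates. Whether the shares of the subtypes bear on the Apod level of all ECs was not tested. The median EC held 782.5 to 796 UMIs in eNOS+/+ and 418 to 1097.5 UMIs in eNOS-/- replicates. In Mural cells the Apod values were 149 and 104 CPM in eNOS+/+ replicates 2 and 3 and 119, 343 and 145 CPM in eNOS-/- replicates, which overlap, with a log2 difference of 0.83 (SE 0.71, adjusted p = 0.878). The 3 cells of eNOS+/+ replicate 1 were left out of that fit, and edgeR and DESeq2 called no gene there (0% of 1973 by edgeR, 119 at an unadjusted p under 0.05).

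The genes whose level followed Apod most closely over 50 sums of a cell type and replicate were EC genes. They were Vwf, the blood clotting factor of ECs (Pearson r = 0.94), Eng, a TGF-beta co-receptor (0.87), the surface glycoprotein gene Cd34 (0.87), the NADPH oxidase gene Nox4 (0.86) and the C-type lectin gene Clec1a (0.86). The sums share libraries and depth, so r is a description. Their mean levels in Tip ECs were 519, 422, 903, 101 and 296 CPM.

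Apoe was highest in Immune cells. Its level there was 22420 and 19067 CPM in eNOS+/+ replicates 1 and 3, and 18834, 17760 and 23628 CPM in eNOS-/- replicates 1 to 3, so the genotypes overlapped. eNOS+/+ replicate 2 had 1 Immune cell and was left out. A UMI was found in 92.6% of Immune cells, with a median of 10 UMIs in the cells that had any and a highest value of 145. The 14 Immune cells with pigment epithelium markers held Apoe at 3912 CPM, and the other 202 at 20108 CPM.

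Neuroglia and Optc+ cells followed. In Neuroglia the level was 4261, 6895 and 8307 CPM in eNOS+/+ and 4869 and 5052 CPM in eNOS-/- replicates 1 and 2. In Optc+ cells it was 7305, 6970 and 8369 CPM in eNOS+/+ and 4690 and 5137 CPM in eNOS-/- replicates 1 and 2. The mean was 20342 ± 2534 CPM in Immune cells, 5877 ± 1677 CPM in Neuroglia and 6494 ± 1541 CPM in Optc+ cells (SD, n = 5). The ranges of the last classes overlapped each other and lay below that of Immune cells. The 5 cells labelled Optc+ in eNOS-/- replicate 3, which carried mural markers, held 0 Apoe UMIs, where 3 counts would be 751 CPM.

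In ECs the Apoe level was lower. It was 87.6, 10.7 and 147 CPM in Tip ECs of eNOS+/+ and 97.7, 117 and 295 CPM in Tip ECs of eNOS-/- replicates. In Structural ECs it was 137, 757 and 266 CPM in eNOS+/+ and 103, 170 and 355 CPM in eNOS-/- replicates. In Proliferative ECs it was 126, 99.0 and 130 CPM in eNOS+/+ and 40.4, 50.7 and 115 CPM in eNOS-/- replicates. Values of the genotypes overlapped in each subtype, and eNOS+/+ replicate 2 held both the lowest value in Tip ECs and the highest in Structural ECs.

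Within a replicate, Neuroglia exceeded all ECs by 21.5- to 58.1-fold in Apoe, and Immune cells exceeded all ECs by 79.0- to 224.8-fold, each in 5 of 5 replicates with at least 10 cells. With cells drawn down to 500 UMIs, an Apoe UMI was found in 96.5% of Immune cells, 87.4% of Optc+ cells, 78.6% of Neuroglia, 7.77% of Structural ECs, 4.67% of Tip ECs, 2.85% of Proliferative ECs and 1.90% of Rods. At full depth the shares were 92.6%, 87.9%, 70.1%, 12.5%, 11.7%, 7.75% and 2.12%.

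Much of the Apoe signal of Structural ECs in 1 replicate lay in cells with microglia markers. In eNOS+/+ replicate 2 the 8 Structural ECs with at least 2 such UMIs held 150 of the 187 Apoe UMIs, and the cells with neither microglia nor glia markers stood at 144 CPM. Over all ECs, the 94 cells with microglia markers held Apoe at 726 CPM, and at 212 CPM without the 11 cells of eNOS+/+ replicate 2. The 652 ECs with Muller glia and astrocyte markers held it at 212 CPM, and the 5201 ECs with neither at 114 CPM. In Tip ECs the 27 cells with microglia markers stood at 41.6 CPM, from 3 UMIs, and those with neither at 104 CPM. In all ECs of eNOS-/- replicates 1 and 3 the cells with microglia markers stood at 41.9 and 98.3 CPM, from 2 and 1 UMIs. Those with neither stood at 75.1 and 141 CPM. Counts of 1 to 3 UMIs are too low to give an order. The level in Rods, which should lack Apoe, was 0 to 286 CPM over replicates. Per UMI of the microglia and macrophage list, Apoe held 0.668 UMIs in Immune cells, 1.43 in all ECs and 1.27 in Rods. Whether ECs transcribe Apoe or carry it from other cells was not tested.

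**Figure D3:**
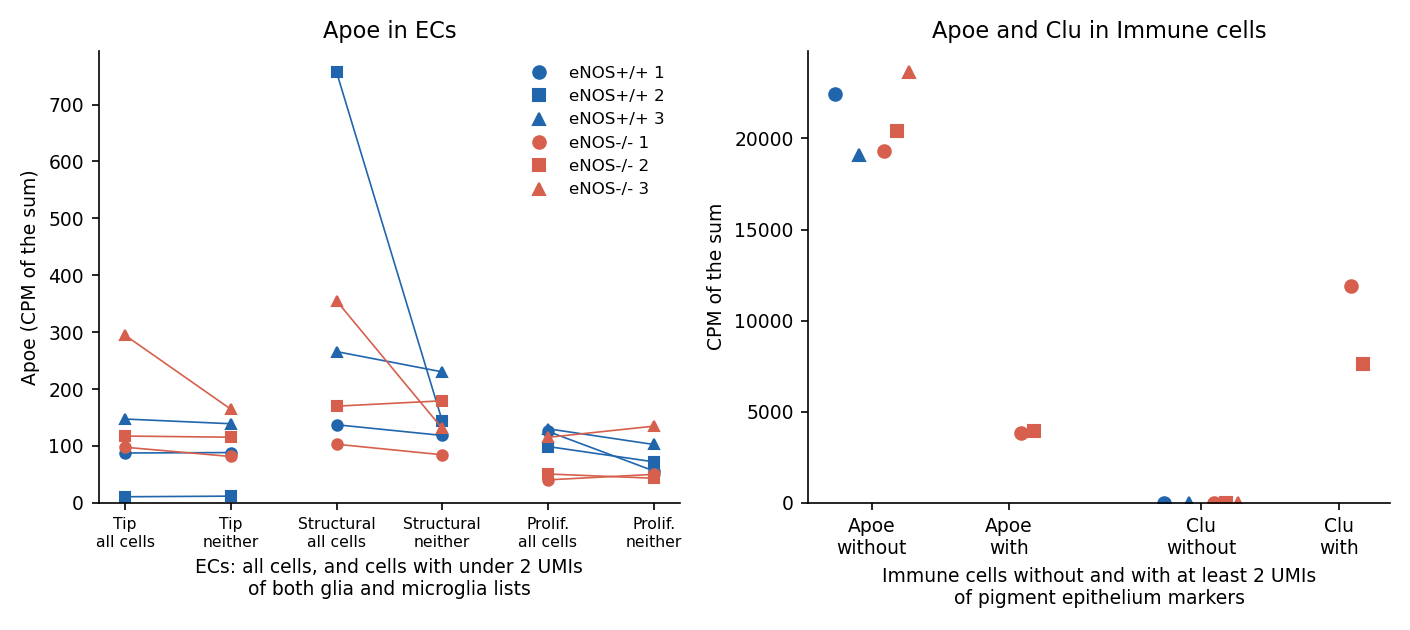
Left, Apoe CPM in ECs by replicate, for all cells of a subtype and for cells with under 2 UMIs of the microglia and of the glia list. The Structural EC value of eNOS+/+ replicate 2 falls from 757 to 144 CPM. Right, Apoe and Clu CPM in Immune cells without and with pigment epithelium markers, where Clu is at 0 in the cells without them.

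No Apoe difference between genotypes passed the edgeR test. The log2 difference was 0.72 (SE 0.70, adjusted p = 0.985) for Tip, -0.93 (SE 0.83, adjusted p = 0.975) for Structural and -1.13 (SE 0.37, adjusted p = 0.515) for Proliferative ECs, and -0.41 (SE 0.60, adjusted p = 0.982) with all ECs summed. With ECs that hold markers of other cell types left out, they were 0.24, -0.33, -0.30 and -0.07. In Proliferative ECs Apoe was called as lower in eNOS-/- without eNOS-/- replicate 3, by log2 -1.37 (adjusted p = 0.0207), and the fit over all replicates did not call it. The fit without that replicate called 74 of 5237 genes, 69 of them as lower in eNOS-/-. The interaction with subtype was not called (adjusted p = 1.00).

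Outside the ECs the Apoe difference was 0.16 (SE 0.43, adjusted p = 0.978) in Immune cells, where 0% of 464 genes were called (22 at an unadjusted p under 0.05), and -0.22 (SE 0.38, adjusted p = 0.952) in Neuroglia, where 0% of 472 were called (27 at an unadjusted p under 0.05). DESeq2 called no gene in either class. Leaving out the cells with pigment epithelium markers gave 0.22 in Immune cells, an alternative chosen after seeing the data. In Optc+ cells both eNOS-/- values lay below the 3 eNOS+/+ values, as for 15.3% of the 1118 genes tested there, and the log2 difference was -0.56 (SE 0.35, adjusted p = 0.611), with 2.06% of genes called. Without the 8 Optc+ cells with pigment epithelium markers it was -0.61 (adjusted p = 0.593). In Rods it was -2.26 (SE 0.84, adjusted p = 1.00), with 0.032% of genes called, and the eNOS-/- values lay below the eNOS+/+ values as for 10.5% of genes. The Rods of eNOS+/+ replicate 1 held 33 Apoe UMIs, 24 of them in 1 cell.

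The genes most like Apoe over the same 50 sums were the lysosomal proteases Ctsd (r = 0.85) and Ctsl (0.83), S100a1 (0.82), the protease inhibitor Timp2 (0.82) and the lactate dehydrogenase subunit Ldhb (0.78). Ctsd stood at 5711 CPM in Immune cells, 813 CPM in Optc+ cells and 282 CPM in Neuroglia.

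Clu was highest in Neuroglia, a class that also held Apoe. Its level there was 2883, 5889 and 3466 CPM in eNOS+/+ and 2748 and 3718 CPM in eNOS-/- replicates 1 and 2. Optc+ cells were next with 1485, 1721 and 1869 CPM in eNOS+/+ and 1491 and 2240 CPM in eNOS-/- replicates 1 and 2, below each Neuroglia value. The 8 Optc+ cells with pigment epithelium markers held 28 of the 48 Clu UMIs of eNOS-/- replicate 1 and 31 of the 109 of eNOS-/- replicate 2. Without them the values were 785 and 2254 CPM. The mean was 3741 ± 1266 CPM in Neuroglia and 1761 ± 313 CPM in Optc+ cells (SD, n = 5). Genotypes overlapped in both classes. The log2 differences were -0.12 (SE 0.41, adjusted p = 0.952) in Neuroglia and 0.19 (SE 0.41, adjusted p = 0.925) in Optc+ cells. The latter turned to -0.12 (SE 0.42, adjusted p = 0.974) without those 8 cells, an alternative chosen after seeing the data.

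Clu was nearly absent from vessel cells. ECs held 80 Clu UMIs in 56 of 5925 cells, a pooled 9.72 CPM, against 50.3 CPM in Rods, where 1.92% of cells had a UMI. The source of the Clu UMIs of ECs was not tested. The 214 Mural cells held 0 UMIs, which allows up to 9.55 CPM, or 1.40% of cells, at 3 counts. Cones, with 50 cells in all and too few for a test, held 16 Clu UMIs in 12 cells. Neuroglia exceeded all ECs by 300.6- to 792.4-fold in the 5 replicates with at least 10 Neuroglia. In eNOS-/- replicate 3, which had no cell labelled Neuroglia, all 20 Clu UMIs of Structural ECs lay in the 37 cells that held at least 2 UMIs of the Muller glia and astrocyte list. The Structural EC level of that replicate was 74.7 CPM, against 3.49 to 23.3 CPM in the others. The log2 difference in all ECs was 1.01 (SE 0.79, adjusted p = 0.942), and it was 0.19 without that replicate.

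Clu in Immune cells lay in the cells that went against their label. Immune cells held 83 Clu UMIs, 25 in eNOS-/- replicate 1 and 58 in eNOS-/- replicate 2. All 83 lay in 12 cells among the 14 with pigment epithelium markers, which stood at 8545 CPM. The other 202 Immune cells held 0 Clu UMIs, which allows up to 19.0 CPM at 3 counts. Leaving those 14 cells out therefore brought the level in Immune cells of both replicates to 0.

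Spon1, an extracellular matrix gene (r = 0.90), Car14, a carbonic anhydrase gene of Muller glia that is in the marker list (0.89), Minar2 (0.86), the ferroxidase ceruloplasmin gene Cp (0.85) and the homeobox gene Six6 (0.85) were most like Clu over the 50 sums. Cp stood at 2743 CPM in Neuroglia and 2196 CPM in Optc+ cells. Between the carriers, r was 0.58 for Apoe and Clu, -0.31 for Apod and Apoe and -0.50 for Apod and Clu.

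Apoe and Clu UMIs were found together in many Neuroglia and Optc+ cells, classes where both genes were common. Of 184 Neuroglia, 96 had a UMI of both, 33 of Apoe alone, 20 of Clu alone and 35 of neither. Of 157 Optc+ cells, 89 had both, 49 Apoe alone, 5 Clu alone and 14 neither. Of the 200 Immune cells with Apoe, 10 had Clu, all of them among the cells with pigment epithelium markers. In Tip ECs, 126 of the 167 cells with an Apoe UMI also had Apod. Deeper cells have more UMIs of any gene, and joint detection was not tested in any of these classes.

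**Figure D4:**
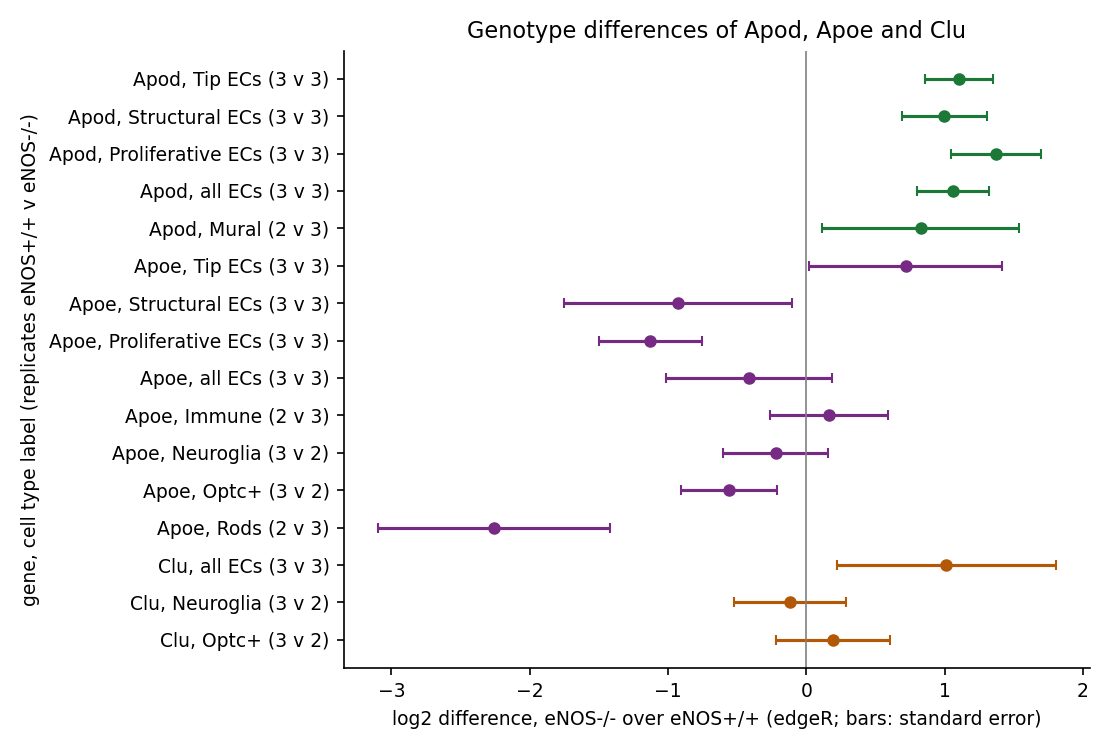
Log2 difference between genotypes (eNOS-/- over eNOS+/+) for each gene and cell type label in which the gene passed the filter on low counts, from edgeR; bars are standard errors, and the label gives the number of replicates per genotype. All Apod values lie above 0, Apoe values lie on both sides, and none passed an adjusted p of 0.05.

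The other genes of lipid transport were taken from 6 lists. No listed gene was called between genotypes in any cell type by edgeR, and DESeq2 was not read for the lists. In all ECs, 3 listed genes had an unadjusted p under 0.05, all lower in eNOS-/-. All were from the list of cholesterol synthesis and its regulator SREBP: Ebp (log2 -0.55), Fdps (-0.94) and Insig1 (-0.79), named after their values were seen. These 3 are 4.84% of the 62 listed genes tested, against 5.76% of all 9483 genes. Over all ECs, 9 of 13 tested genes of lipid efflux and lipoprotein remodelling had a value above 0, with a median log2 difference of 0.18, against 0.01 over all genes. Of the receptors of apolipoproteins and clusterin, 3 of 12 did, with a median of -0.08. Cholesterol synthesis had 9 of 20 and a median of -0.06, lysosomal lipid handling 6 of 12 and -0.01, lipocalins and extracellular chaperones 2 of 3 and 0.02, and other apolipoproteins 1 of 2 and -0.01.

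The levels placed these genes in different cells. Of the efflux genes, the sterol transporters Abcg1 and Abca1 stood at 182 ± 31.8 and 162 ± 26.7 CPM in all ECs (SD, n = 6), and Abcg1 reached 273 CPM in Tip ECs. Lpl, which releases fatty acids from lipoproteins, stood at 1030 ± 606 CPM in Immune cells (SD, n = 5) and 12.2 CPM in all ECs. The HDL receptor gene Scarb1 had 211 ± 175 CPM in Neuroglia, 138 CPM without eNOS+/+ replicate 1, and 110 ± 15.2 CPM in all ECs, and the lipase gene Lipg 135 ± 107 CPM in Neuroglia and 0.072 CPM in all ECs.

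Of the receptors, Lrp8, a receptor of Apoe and Reelin, stood at 372 CPM in all ECs, 22.0 CPM in Neuroglia and 9.76 CPM in Immune cells. Bsg, a membrane glycoprotein gene, had 2258 CPM in all ECs and 2796 CPM in Neuroglia. Trem2, the microglial receptor that binds lipids and Apoe and is in the microglia marker list, had 973 ± 169 CPM in Immune cells and 0 in Neuroglia (SD, n = 5). Lrp4 had 1041 CPM in Immune cells and 167 CPM in all ECs.

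The lysosomal genes Psap, a saposin precursor, and Npc2, a cholesterol binding protein, had 3169 and 1608 CPM in Immune cells against 410 and 239 CPM in all ECs. Of the chaperone list, Sparc, a matrix protein of ECs, had 9589 CPM in all ECs, and the protease inhibitor Cst3 had 10764 CPM in Immune cells and 7203 CPM in Neuroglia. Transcripts of the cholesterol synthesis and SREBP list were low in all ECs, the highest being Hmgcs1 at 50.6 ± 10.2 CPM (SD, n = 6). In Neuroglia Hmgcs1 stood at 193 ± 270 CPM (SD, n = 5), with 627 CPM in eNOS+/+ replicate 1 and a mean of 84.3 CPM without it. Insig2 stood at 177 ± 68.0 CPM in Neuroglia, and Ebp at 94.4 ± 102 CPM in Immune cells (SD, n = 5). Of the 16 genes listed by name as other apolipoproteins, 8 were in the count table, and Apool and Apoo were the 2 tested in all ECs. They had 42.6 and 27.9 CPM there, and Apoc1 had 67.9 ± 68.3 CPM in Immune cells. Whether Apool and Apoo are secreted carriers cannot be read from these values.

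The pigment epithelium markers of Immune cells also touched 1 list. In Immune cells the median log2 difference of the 4 tested lipocalin and chaperone genes was 3.49. Ttr, a retinol and thyroid hormone carrier that is itself a pigment epithelium marker, had 0 CPM in eNOS+/+ and 2708.5 CPM in eNOS-/- replicates, and Ptgds, a lipocalin that makes prostaglandin D2, 60.9 and 1613 CPM. With the 14 cells left out, the test kept 2 of these genes, Cst3 and Sparc, with a median of 0.86. Cst3 had 6918 CPM in eNOS+/+ and 12266.5 CPM in eNOS-/- replicates, a log2 difference of 1.02 (SE 0.40, adjusted p = 0.851).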

How the data were processed

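Per the labels and the study's methods, the authors aligned Drop-seq reads with kb-python to GRCm38, merged the replicates, removed cells with few genes or many mitochondrial counts and clusters of red blood cells and pigment epithelium, and deposited UMI counts per gene and cell with a cell annotation. The submitters' processing notes name Seurat 3 and bcl2fastq. All deposited cells are annotated as singlets, and no doublet caller was run here. Genotypes came from the labels and the replicate and cell type of each cell from the annotation, where the label "ECs" is called Structural ECs here. A replicate is a pool of retinas, so p-values measure the spread between pools.

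UMIs were summed per cell type and replicate, and sums of at least 10 cells entered fits and means. EC sums held 488367 to 2425603 UMIs per replicate. Genotypes were compared with edgeR 4.0.16 in R 4.3.3 (filterByExpr, TMM, robust quasi-likelihood F test), with Benjamini-Hochberg adjustment over all genes tested and calls under 0.05. DESeq2 1.42.0 served as an alternative, and the procedure was tested on simulated counts. The filter kept 16 combinations of gene and cell type. Clu was not tested in the EC subtypes or Immune cells. Marker positive cells had at least 2 UMIs of a list. Drawn-down shares used 1 random draw of 500 UMIs per cell.

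The genes and lists were chosen with earlier results of these data known. Besides the carriers, genes were named as the 5 with the highest Pearson r of log2(CPM + 10) to each carrier, and by level within each lipid list, of which 1 gene is not reported here. Same-numbered replicates of the genotypes had correlations of 0.13, -0.07 and 0.12 in their deviations over 9483 genes, so numbers were not used as pairs. The alternatives were other scaling, no filter, leaving out each replicate, a replicate block, no mitochondrial genes, a minimum of 500 UMIs per cell, 1 cell per barcode family, and cells with markers of other types left out. Chosen after seeing the data were a fit without robust priors and leaving out Immune or Optc+ cells with pigment epithelium markers.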

Additional observations from a re-analysis of the deposited data

Results flagged for a closer look

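Single replicates stood apart in 6 of 29 groups of 4 to 6 replicates by Dixon's criterion, which chance meets in about 1 in 20 groups. The Apod level in Mural cells was 343 CPM in eNOS-/- replicate 2, against 104 to 149 CPM in the other replicates. The Apoe level in Neurons was 59.4 CPM in eNOS+/+ replicate 3, from 3 UMIs. The Clu level in Structural ECs was 74.7 CPM in eNOS-/- replicate 3, and its level in all ECs was 41.0 CPM there, with the UMIs of that replicate in cells that also held glial markers. The Clu level in Immune cells was 1232 CPM in eNOS-/- replicate 2, in cells with pigment epithelium markers. The Clu level in Rods was 139 CPM in eNOS-/- replicate 3, from 1 UMI.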

How the results depend on the processing

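Of 220 alternative values of the 16 genotype differences, 199 kept direction and side of the threshold, as did 13 of 14 for the interaction. Without the filter on low counts, Apod was called in Tip (log2 1.14), Structural (1.01) and Proliferative ECs (1.39) and in all ECs (1.07). DESeq2 called it in Tip ECs (1.11), and 1 cell per barcode family called it in Proliferative ECs (1.90). With the replicate number as a block, Apod was called in Proliferative ECs (1.50), Apoe in Neuroglia turned to 0.0235, and no other Apod, Apoe or Clu difference changed its call or direction. In Neuroglia the sign also turned for Apoe without the filter (0.21) and for Clu by DESeq2 (0.0041), without the filter (0.35), in cells with at least 500 UMIs (0.0214) and with 1 cell per family (0.10). Clu in Optc+ cells turned to -0.12 without the cells with pigment epithelium markers, where 3 genes were called against 23. None of these Neuroglia and Optc+ values was called, and the cause was not tested.

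Leaving out 1 replicate at a time gave Apod differences of 0.99 to 1.34 for Tip, 0.74 to 1.62 for Structural and 1.08 to 1.82 for Proliferative ECs, and 0.88 to 1.47 with all ECs summed. Apoe ranged from -1.37 to -0.82 in Proliferative ECs and from -0.45 to 0.0176 in Neuroglia. Clu ranged from -0.38 to 0.23 in Neuroglia and from -0.0749 to 0.51 in Optc+ cells. The Apod difference of Tip minus Structural ECs ranged from -0.29 to 0.22.

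The number of genes called was less stable. Without the filter it was 6 for Tip, 29 for Structural and 9 for Proliferative ECs, 27 with all ECs summed, 15 in Optc+ cells, 0 in Rods and 1 each in Mural cells, Immune cells, Neuroglia and Neurons. DESeq2 called 2 in Tip ECs, 11 in Optc+ cells and 0 in Rods. Cells with at least 500 UMIs gave 2 in Tip ECs, 1 each in Structural ECs, all ECs and Neuroglia, and 5 in Neurons. With 1 cell per family it was 2 for Tip, 1 for Structural and 7 for Proliferative ECs, 3 in Neuroglia, 2 in Neurons and 0 in Rods. The replicate block gave 5 in Structural ECs, 7 in Proliferative ECs, 0 in Optc+ cells and Rods and 1 each in Mural cells, Immune cells, Neuroglia and Neurons. Leaving out ECs with other markers gave 2 in Tip ECs, the fit without robust priors 1 in Proliferative ECs, and removal of mitochondrial genes 0 in Rods. Leaving out 1 replicate gave 1 to 25 for Tip, 0 to 45 for Structural and 0 to 74 for Proliferative ECs, 1 to 102 with all ECs summed, 0 to 3 in Mural cells, 0 to 1 in Immune cells and in Neuroglia, 9 to 31 in Optc+ cells, 0 to 3 in Neurons and 0 to 2 in Rods. The highest EC counts came without eNOS-/- replicate 3. Structural ECs of that replicate held more UMIs of the mural cell list than those of the other replicates, and whether this bears on the counts was not tested.

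Of 318 alternative levels, 312 moved by less than 1 SD, as did 29 of 31 ratios. Leaving out 1 replicate, which is among these alternatives, cannot move a mean by 1 SD of its replicates. For those alternatives the count therefore does not show stability. The log2 ratio of Clu in all ECs over Neuroglia was -7.62 as a mean over cells and -8.44 with cells of other markers left out, against -9.07. No alternative ratios were made for Apod, or for Clu over Immune cells, where most sums were under 3 UMIs.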
